A study of Mus musculus with 6 samples.

Results

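Acute-phase proteins are secreted in large amounts when cells sense infection or injury, and the genes examined here encode 10 such proteins or proteins carried by neutrophils: Saa1, Saa2, Saa3, Lcn2, Hp, Orm1, Ptx3, Cp, S100a8 and S100a9. They were chosen by gene name, and all 10 were found among the 57010 genes of the deposited count table. The 6 libraries came from primary neonatal mouse cardiomyocytes (NMCMs), the cells left in suspension when digested hearts of neonatal C57BL/6 mice were plated to remove adherent fibroblasts. All 6 were prepared from cells under hypoxia (HO), 3 with vehicle (HO + Vehicle, V1 to V3) and 3 with β-sitosterol, a plant sterol close in structure to cholesterol (HO + β-SITO, T4 to T6). How much β-SITO was added and how long hypoxia lasted are not given for these libraries in the sources used here, and no normoxic library was analysed. No source says that the libraries came from separate cultures, so p-values measure at most the spread between these libraries, which may be technical. The names of the T libraries carry a suffix that those of the V libraries lack, and a separate preparation cannot be told apart from the treatment.

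In the acute phase, interleukin-6, interleukin-1 and tumor necrosis factor switch on the genes of secreted defence proteins through STAT3, C/EBP and NF-κB factors. The liver makes most of the plasma forms, while fibroblasts, macrophages, endothelial cells and epithelia make local ones such as serum amyloid A3, pentraxin 3 and lipocalin 2. S100A8 and S100A9 form calprotectin, an abundant protein of the neutrophil cytosol that is released during tissue injury, including that of the infarcted heart.

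Depth was similar across the study, at 16694734 to 17082129 counts for V1 to V3 and 16962152 to 18460522 for T4 to T6. Levels are given as CPM, counts scaled to library size after TMM normalization, and levels of different genes are compared only as CPM per kb of the principal GENCODE transcript. The cells were checked against the label: cardiomyocyte markers were present in every library (12 of 12 tested, with a summed level of 8006 to 9551 CPM with vehicle and 7743 to 12549 CPM with β-SITO). Fibroblast markers were present as well, with a sum over 9 genes of 29935 to 31206 CPM with vehicle and 44584 to 45674 CPM with β-SITO. These sums are not corrected for transcript length, so the lists are not ranked against each other. RNA of both cell types was thus present, and in bulk RNA fewer cells of a type and less RNA per cell cannot be told apart.

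Of the 10 genes, 5 had enough counts to be tested, Saa3, Ptx3, Lcn2, Hp and Cp, and all 5 fell in the HO + β-SITO group, by 3.76-fold for Cp to 474.8-fold for Saa3. A gene was called when edgeR's quasi-likelihood test gave an adjusted p under 0.05 and the change was more than 2-fold. By this rule 10.1% of all 14799 tested genes were lower and 12.8% higher, 22.8% in either direction. Each of the 5 genes had at least 21 counts in every library and would have passed the filter on low counts from the HO + β-SITO libraries alone. The other 5 genes, Saa1, Saa2, Orm1, S100a8 and S100a9, held no more than 18 counts in any library. As a share of all counts, the 10 genes together made up 0.430% to 0.479% in V1 to V3 but 0.0139% to 0.0155% in T4 to T6.

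**Figure D1:**
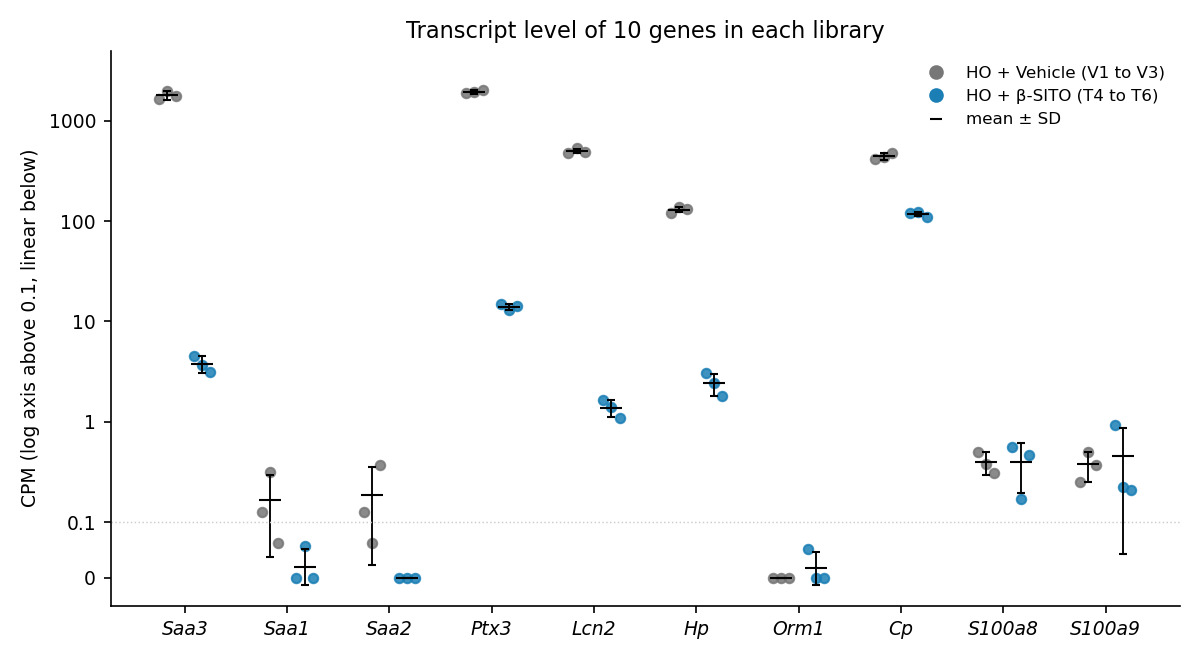
Level of the 10 genes in each library, in CPM on an axis that is logarithmic above 0.1 and linear below; points are libraries, and black marks are the mean ± SD of 3 libraries. Saa3, Ptx3, Lcn2, Hp and Cp are lower in every T library than in every V library, S100a8 and S100a9 overlap between the groups, and Saa1, Saa2 and Orm1 lie near 0 in all 6 libraries.

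Serum amyloid A proteins are small apolipoproteins of high-density lipoprotein that also act on immune cells. In the mouse, Saa1 and Saa2 encode the plasma forms from the liver and Saa3 the form made outside it. The 3 genes lie close together on chromosome 7 (GRCm39 in the submitters' processing notes), Saa3 (ENSMUSG00000040026) from 46361422 to 46365124, Saa1 (ENSMUSG00000074115) from 46389921 to 46392404 and Saa2 (ENSMUSG00000057465) from 46401214 to 46403737. Saa3 had 1638, 1985 and 1784 CPM in V1, V2 and V3, and 4.57, 3.65 and 3.12 CPM in T4, T5 and T6. Every HO + β-SITO library was far below every HO + Vehicle library. The log2 fold change was -8.89 ± 0.12 (SE, edgeR's quasi-likelihood test, adjusted p = 5.38e-17), and it ranked 34 of 14799 tested genes counted from the largest decrease. By CPM per kb Saa3 ranked 8 of 22405 genes with vehicle, at 3248 ± 314 (SD, n = 3). With β-SITO it ranked 7110, at 6.82 ± 1.32 CPM per kb.

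Saa1 and Saa2 were almost absent in both groups. Saa1 had 2, 5 and 1 counts in V1 to V3 and 0, 1 and 0 in T4 to T6. Saa2 had 2, 1 and 6 counts in V1 to V3 and none in any HO + β-SITO library. At this depth no fold is given for either gene, since with vehicle Saa2 averaged 3 counts a library, the floor used here, and Saa1 fewer. When no filter on low counts was used, Saa2 was called lower (edgeR's quasi-likelihood test, adjusted p = 0.0107) and Saa1 was not (adjusted p = 0.0866), where 7.16% of 26597 genes were called lower. That fit took little account of the spread between libraries, as given below with S100a8 and S100a9, so these p-values may be too small. Saa3 held 99.98% of the counts of the 3 SAA genes in each HO + Vehicle library, and its lowest share with β-SITO was 98.5%, in T5, where Saa1 had 1 count. The principal transcripts of Saa1 and Saa2 were 87.3% identical in a global alignment and shared no run of 100 bases, and those of Saa1 and Saa3 were 60.3% identical. How reads that match both Saa1 and Saa2 were counted is not given in the sources used here.

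The promoters of the 3 SAA genes are shown because neighbouring genes of the same family differed so much in level. They are the 250 bases before the RefSeq start of each gene (GRCm38.p6), at chr7:46715677-46715926 on the minus strand for Saa3, chr7:46742981-46743230 on the minus strand for Saa1 and chr7:46751583-46751832 on the plus strand for Saa2. Capitals mark matches on either strand to TTNNGNAA, a core of sites bound by C/EBP factors.
Saa3: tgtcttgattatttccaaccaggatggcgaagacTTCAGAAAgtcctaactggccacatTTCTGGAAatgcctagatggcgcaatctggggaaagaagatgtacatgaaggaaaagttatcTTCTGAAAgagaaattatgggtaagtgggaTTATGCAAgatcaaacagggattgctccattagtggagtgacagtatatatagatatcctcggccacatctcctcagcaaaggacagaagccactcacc
Saa1: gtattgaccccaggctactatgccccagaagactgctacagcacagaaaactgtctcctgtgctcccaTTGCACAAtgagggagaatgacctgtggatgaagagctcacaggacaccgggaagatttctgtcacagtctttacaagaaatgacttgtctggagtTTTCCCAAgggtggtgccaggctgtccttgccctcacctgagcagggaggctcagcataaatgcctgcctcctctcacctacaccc
Saa2: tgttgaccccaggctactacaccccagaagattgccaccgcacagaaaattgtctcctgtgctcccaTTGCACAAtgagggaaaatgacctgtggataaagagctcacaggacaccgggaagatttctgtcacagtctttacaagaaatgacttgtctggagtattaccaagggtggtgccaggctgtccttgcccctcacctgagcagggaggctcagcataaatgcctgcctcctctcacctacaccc
The Saa1 and Saa2 windows were 94.8% identical to each other, and that of Saa3 was 48.2% identical to Saa1 and 47.9% to Saa2. Saa3 held 4 matches to the core, Saa1 held 2 and Saa2 held 1.

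Pentraxin 3 is a long pentraxin that recognises microbes and dying cells, binds complement proteins and stabilises hyaluronan matrix. Ptx3 (ENSMUSG00000027832) lies on chromosome 3 from 66127331 to 66133226, and overlaps Veph1 on the other strand. It had 1884, 1927 and 2019 CPM in V1 to V3 and 14.95, 13.04 and 14.16 CPM in T4 to T6. The groups were far apart and the libraries within each group close together, with a coefficient of variation of 3.57% and 6.84%. The log2 fold change was -7.11 ± 0.08 (SE, edgeR's quasi-likelihood test, adjusted p = 1.40e-17), a 138.1-fold decrease. Veph1 held 22 counts over all HO + Vehicle libraries, against 93136 for Ptx3. Whether counting used strand is not given in the sources used here, so reads of such overlapping pairs cannot be told apart.

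Lipocalin 2 is a neutrophil granule protein, also made by stressed epithelia, fibroblasts and heart cells, that withholds iron from bacteria by binding their siderophores. Lcn2 (ENSMUSG00000026822) lies on chromosome 2 from 32274645 to 32278264. It had 481, 532 and 488 CPM in V1 to V3 and 1.64, 1.41 and 1.09 CPM in T4 to T6. No library of one group came near those of the other. Its log2 fold change of -8.49 ± 0.11 (SE, edgeR's quasi-likelihood test, adjusted p = 2.36e-17) was a 360.3-fold decrease, with 32, 25 and 21 counts left in T4, T5 and T6. In CPM per kb, the ratio of Lcn2 to Saa3 was 0.162 to 0.178 in V1 to V3 and 0.212 to 0.233 in T4 to T6.

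Promoter windows of the other 2 genes that fell by more than 100-fold are shown in the same way, so that the genes with the largest decreases can be compared. They lie at chr3:66219637-66219886 on the plus strand for Ptx3 and chr2:32387740-32387989 on the minus strand for Lcn2 (RefSeq, GRCm38.p6), and capitals again mark TTNNGNAA.
Ptx3: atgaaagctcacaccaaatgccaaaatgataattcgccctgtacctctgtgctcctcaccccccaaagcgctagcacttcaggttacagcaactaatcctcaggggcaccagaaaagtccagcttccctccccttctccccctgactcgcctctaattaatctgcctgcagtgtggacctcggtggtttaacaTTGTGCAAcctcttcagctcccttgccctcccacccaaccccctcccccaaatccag
Lcn2: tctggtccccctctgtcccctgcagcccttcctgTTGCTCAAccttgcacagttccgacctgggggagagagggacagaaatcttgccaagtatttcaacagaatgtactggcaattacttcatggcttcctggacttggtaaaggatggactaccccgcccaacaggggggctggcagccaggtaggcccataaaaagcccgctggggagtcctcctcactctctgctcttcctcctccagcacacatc
Of the 10 genes, 8 had windows in the RefSeq table, all but Hp and Orm1. The C/EBP core was found in at least 1 window of each of the 8 genes, and in 36.8% of all 32851 windows of this length. The count for the members is by gene, with 2 windows for Cp, and the Saa1 and Saa2 windows are 94.8% identical, so the shares are not strictly alike. Saa1, Saa2, S100a8 and S100a9, which had too few counts to be tested, are among the 8. Matches to the NF-κB consensus and to TTCNNNGAA, a STAT motif, were found in 0 of the 8, against 7.25% and 7.02% of all windows. TGANTCA, the AP-1 motif, was found for Cp and in 6.75% of all windows, and TATAAA was found for Cp and S100a8 and in 12.4% of all windows. A match describes these letters in this window and does not show a bound site.

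Haptoglobin binds free hemoglobin and orosomucoid 1 carries drugs and lipids in plasma, and both are classical acute-phase products of the liver. Hp (ENSMUSG00000031722) lies on chromosome 8 from 110301760 to 110305804. It had 122, 138 and 132 CPM in V1 to V3 and 3.03, 2.42 and 1.82 CPM in T4 to T6, with no overlap. The log2 fold change of Hp was -5.74 ± 0.11 (SE, edgeR's quasi-likelihood test, adjusted p = 1.16e-15), a 53.6-fold decrease, and 1.04% of all tested genes had a log2 fold change as low or lower. Orm1 (ENSMUSG00000039196), on chromosome 4 from 63262797 to 63266400, had 1 count in T4 and none in the other 5 libraries. Its transcript shares 6.95% of its windows of 100 bases with Orm2, which itself held 3, 3 and 5 counts in V1 to V3 and 1, 0 and 3 in T4 to T6. Of 10 hepatocyte markers 7 had 3 counts or fewer in every library, with Hnf4a, Tat and Serpina1a at 0. Their summed level was 7.31 to 11.3 CPM with vehicle and 33.7 to 42.3 CPM with β-SITO, most of it from Ahsg, and its part in the decrease of Hp was not tested.

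Ceruloplasmin is the copper-carrying ferroxidase that helps iron leave cells, in a plasma form and a form anchored to the cell surface, which gene counts do not separate. Cp (ENSMUSG00000003617) lies on chromosome 3 from 20011218 to 20063309 and overlaps Hps3 on the other strand. It had 415, 436 and 481 CPM in V1 to V3 and 122, 122 and 111 CPM in T4 to T6. The groups did not overlap, and the log2 fold change of -1.91 ± 0.07 (SE, edgeR's quasi-likelihood test, adjusted p = 1.54e-12) was the smallest in size of the 5 tested genes. Summed over 3 libraries, Hps3 held 773 counts with vehicle and 1106 with β-SITO, against 21280 and 6669 for Cp. With β-SITO, Cp had 29.3 CPM per kb, the highest of the 5 tested genes, against 7.40 for Ptx3 and 6.82 for Saa3.

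**Figure D2:**
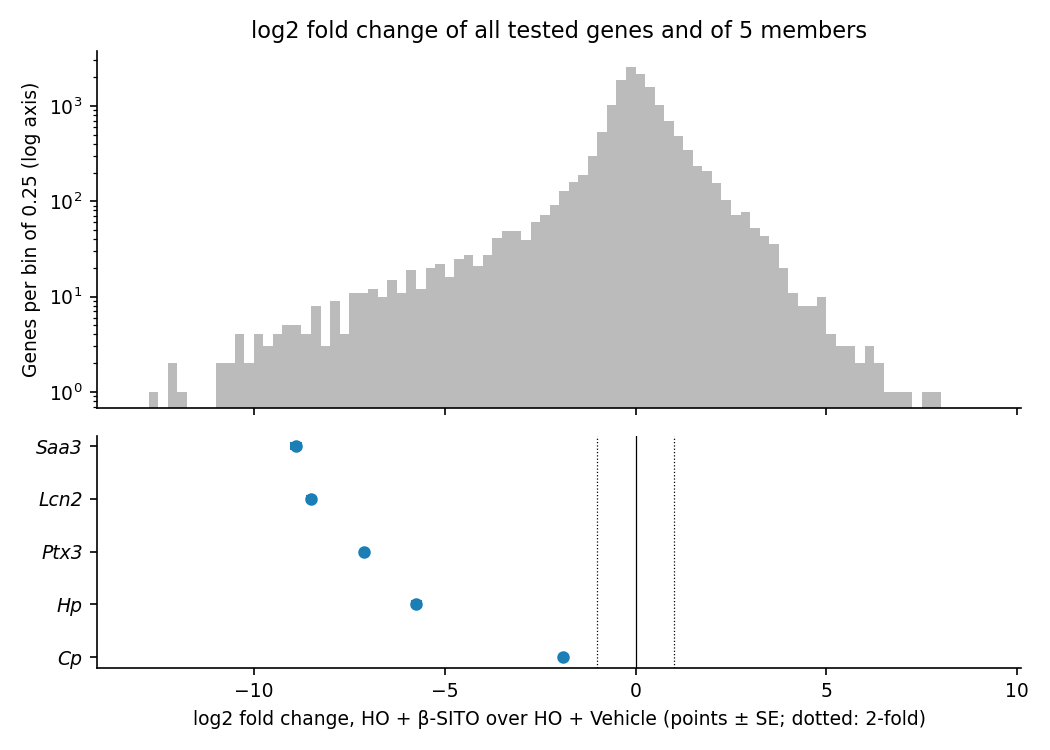
Number of genes by log2 fold change for all 14799 tested genes (upper panel, log axis) and log2 fold change ± SE of the 5 tested members (lower panel); negative values are lower with β-SITO, and dotted lines mark 2-fold. Saa3 (-8.89), Lcn2 (-8.49), Ptx3 (-7.11) and Hp (-5.74) lie in the left tail, and Cp (-1.91) nearer to the centre.

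All 5 tested genes had every T library below every V library, which was so for 35.8% of all tested genes, while 34.8% had every T library above. For each of them the exact permutation test over libraries gave p = 0.1 (two-sided), the smallest p that 3 libraries against 3 allow. Since the 5 genes fell by different amounts, the make-up of the group changed. Saa3 made up 63.3% to 66.4% of the summed CPM per kb of the 10 genes in V1 to V3, and 12.6% to 15.4% in T4 to T6. Cp made up 2.01% to 2.37% of that sum with vehicle and 56.6% to 63.2% with β-SITO. The share of Ptx3 was 18.8% to 21.3% with vehicle and 14.3% to 16.8% with β-SITO. The ratio of Saa3 to Ptx3 in CPM per kb was 2.97, 3.52 and 3.02 in V1 to V3 and 1.05, 0.958 and 0.754 in T4 to T6. Among the HO + β-SITO libraries T4 had the highest CPM of Saa3, Ptx3, Lcn2 and Hp, though not of Cp.

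**Figure D3:**
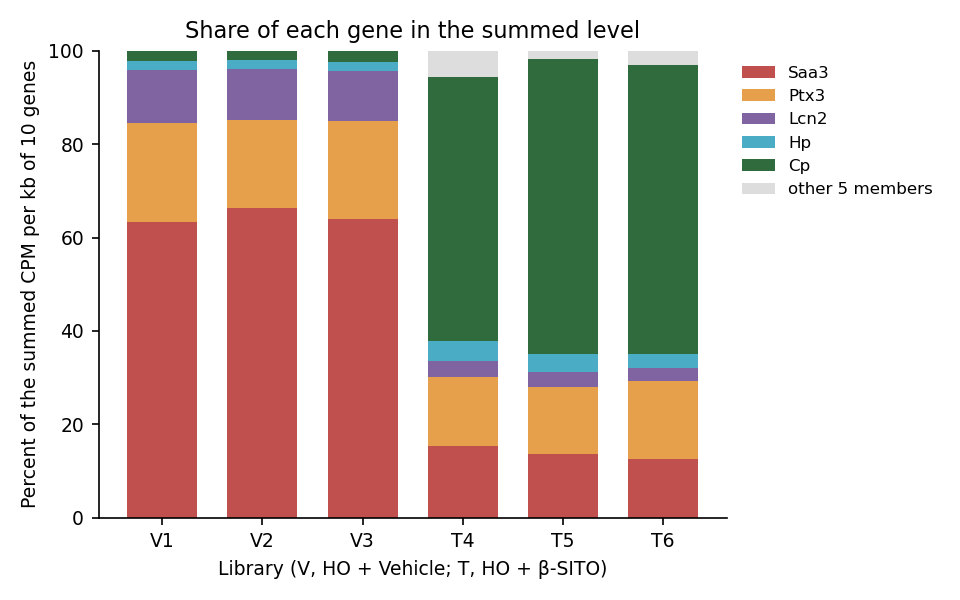
Share of each gene in the summed CPM per kb of the 10 genes, as percent, for each library; colours are genes, and the 5 genes with few counts are drawn together. Saa3 is the largest share in V1 to V3 (63.3% to 66.4%) and Cp in T4 to T6 (56.6% to 63.2%).

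S100a8 and S100a9, the calprotectin subunits, stayed at low counts in both groups. Both lie on chromosome 3, S100a8 (ENSMUSG00000056054) from 90576285 to 90577342 and S100a9 (ENSMUSG00000056071) from 90599939 to 90603028. S100a8 had 8, 6 and 5 counts in V1 to V3 and 11, 3 and 9 in T4 to T6. S100a9 had 4, 8 and 6 counts in V1 to V3 and 18, 4 and 4 in T4 to T6. The groups overlapped for both genes, and T4 held 29 counts of the pair, against 7 in T5 and 13 in T6. Without a filter on low counts the log2 fold change was 0.04 for S100a8 (95% interval -1.03 to 1.10) and 0.29 for S100a9 (95% interval -0.76 to 1.34). Changes within these intervals were not detectable at this depth. The adjusted p was 0.957 and 0.692 (edgeR's quasi-likelihood test).

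Most neutrophil markers had few counts in these cultures, and Csf3r and Mmp8 had the most. Of 16 genes typical of neutrophils, 8 had no more than 3 counts in any library, and Ly6g, Retnlg and Fcnb were at 0. Their summed level was 24.3 to 25.4 CPM with vehicle and 6.30 to 9.15 CPM with β-SITO, and 4 were tested. Csf3r, the receptor for granulocyte colony-stimulating factor, fell from 14.6 ± 0.606 to 3.42 ± 0.581 CPM (SD, n = 3), and Mmp8, a collagenase, from 6.62 ± 0.0401 to 1.80 ± 0.452 CPM. Camp, the cathelicidin precursor, also fell, with 27, 29 and 31 counts in V1 to V3 and 0, 5 and 2 in T4 to T6. Camp passed the filter on low counts only through the HO + Vehicle libraries, so the filter largely fixed its direction. Padi4 had a log2 fold change of -0.71 and was not called. Prtn3, proteinase 3, chosen after its values were seen, went the other way at counts below the filter, with 1, 0 and 1 in V1 to V3 and 10, 11 and 9 in T4 to T6.

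Markers of the other cell types that could make these proteins did not fall as lists. Of 13 macrophage markers 8 rose and 1, Fcgr1, fell, with a summed level of 1323 to 1448 CPM against 2873 to 3532 CPM. The 4 not called did not rise alike. Ptprc (-0.03) and Adgre1 (-0.06) overlapped between the groups, Itgam (0.47) was higher in every T library, and Aif1 (-0.77) was lower in every T library. Mrc1, the mannose receptor, had the largest increase (log2 fold change 4.79), and Lyz2, lysozyme, had the highest mean CPM of the list (647.0 ± 59.7 against 1408 ± 170 CPM). C1qa, a complement subunit, rose from 69.0 ± 2.61 to 223.8 ± 26.7 CPM and Cd68, a lysosomal glycoprotein, from 72.6 ± 0.570 to 220.4 ± 23.7 CPM. All 9 endothelial markers rose, with a sum of 212.6 to 242.7 against 855.4 to 884.3 CPM, and Vwf, von Willebrand factor, rose most (4.09). Of 12 cardiomyocyte markers Myh7 (13.4 ± 3.26 against 41.0 ± 19.6 CPM) and Nppa (416.3 ± 34.5 against 1176 ± 458 CPM) were called higher, with T libraries that spread widely. Of the 10 not called, Tnnt2 (-0.47) and Pln (-0.42) were lower in every T library and Ttn (0.80) was higher in every T library. The rest, among them Myh6 (0.53), overlapped between the groups. Of the 9 fibroblast markers none was called, and their sum was higher with β-SITO, as given above. Most of that sum came from the collagen genes Col1a1, Col1a2 and Col3a1. These, Thy1, Lum and Tcf21 were higher in every T library than in every V library. Dcn (-0.52) was lower in every T library, and Postn and Pdgfra overlapped between the groups. Most of the neutrophil sum given above came from Csf3r and Mmp8. Beside the decreases of Saa3, Ptx3, Lcn2 and Hp, the summed neutrophil level fell while the macrophage and endothelial sums rose. The part of these levels in those decreases was not tested. Genes named here beyond the largest changes and the highest mean CPM were chosen after their values were seen.

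Other acute-phase genes fell for the most part. Of 29 listed, 28 were found and 15 were tested, and of these 12 fell and 3 rose, with a median log2 fold change of -2.51 against -0.01 over all tested genes. Cfb, Hpx and Mt2 passed the filter on low counts only through the HO + Vehicle libraries, and Itih3 only through the HO + β-SITO libraries. The filter thus largely fixed the direction of these genes. Hpx and Mt2 are named after their values were seen. Cfb, complement factor B, fell most (39.1 ± 1.74 to 0.161 ± 0.0947 CPM, SD, n = 3), with a log2 fold change of -7.87. It was followed by Il1rn, the interleukin-1 receptor antagonist (-5.86), Steap4, a metalloreductase of the cell surface (-5.48), and Serpina3g, an intracellular protease inhibitor (-5.20). C3, the central complement protein, had the highest mean CPM of the list over the 6 libraries, a scale not corrected for its long transcript, and fell from 2448 ± 130 to 299.2 ± 27.8 CPM (SD, n = 3). The 3 that rose were chosen for mention after their values were seen. They are Itih3 (2.45) and Itih4 (2.11), heavy chains of inter-alpha-trypsin inhibitors that bind hyaluronan, and A2m (2.32), a broad protease inhibitor. Of the classical liver products, Fgg, Apcs and Serpina1a were at 0, and Crp, Fga, Fgb and Saa4 had no more than 3 counts in any library.

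**Figure D4:**
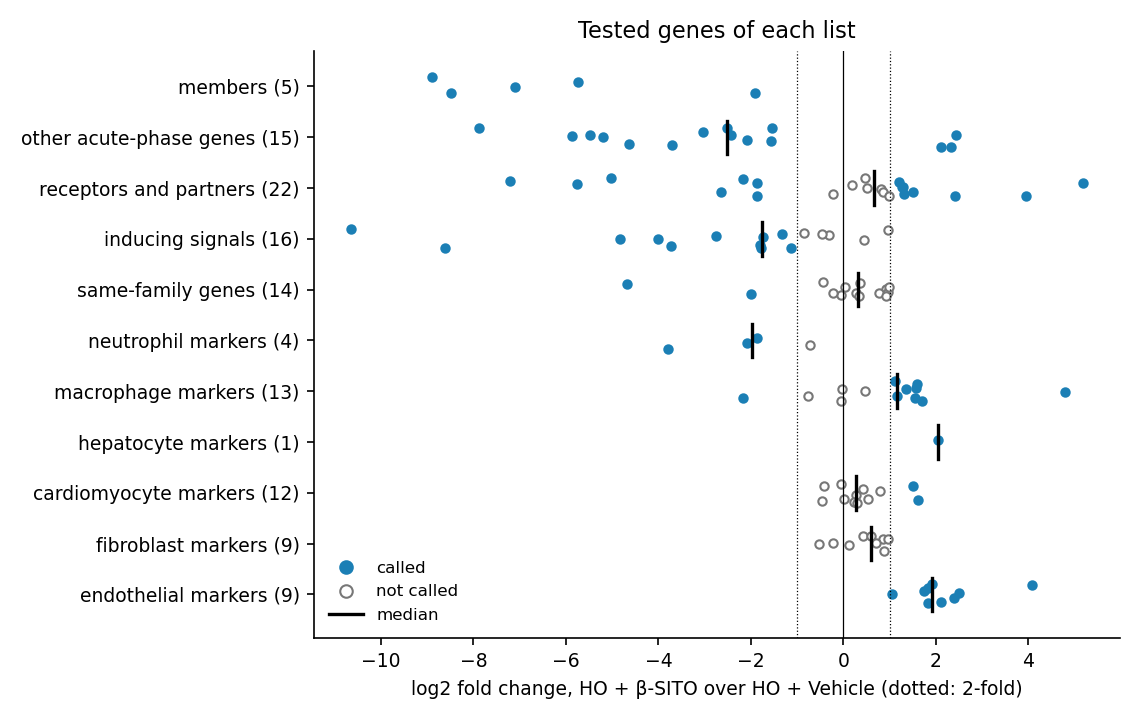
log2 fold change of the tested genes of each list (number tested in brackets); filled points were called, open points were not, bars are list medians (none is drawn for the members), and dotted lines mark 2-fold. Other acute-phase genes lie mostly on the lower side (median -2.51), receptors and partners on both sides (0.65), and endothelial markers on the higher side (1.91).

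Most cytokines, receptors and factors that induce acute-phase genes were lower. Of 16 genes, all tested, 11 fell and none was called higher. Their median log2 fold change was -1.76. The largest decreases were those of Il1b, Il1a (-8.62), Il6 and Tnf. Il1a had 1377, 1501 and 1592 counts in V1 to V3 and 2, 5 and 6 in T4 to T6, and Il1b had 4, 1 and 2 counts left in T4 to T6. Both passed the filter on low counts only through the HO + Vehicle libraries, so the filter largely fixed their direction. The receptor subunit Il6st, with the highest mean CPM of the list, had 1420 ± 137 CPM with vehicle and 1148 ± 56.6 CPM with β-SITO (SD, n = 3) and was not called (log2 fold change -0.31). Il6ra, the receptor for interleukin-6, went the other way, from 17.9 ± 0.648 to 34.9 ± 3.57 CPM (SD, n = 3, log2 fold change 0.97), with every T library above every V library, and was just under the 2-fold limit. It was chosen after its values were seen. The C/EBP genes, chosen for mention after their values were seen, had smaller changes: Cebpd fell by 1.32 and Cebpb by 1.14 on the log2 scale.

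Receptors and binding partners of the member proteins went both ways. Of 22 genes, all tested, 7 fell and 8 rose, with a median log2 fold change of 0.65. Tlr2, a Toll-like receptor that senses SAA, fell by 5.02 on the log2 scale, from 969.3 ± 55.8 to 29.8 ± 4.49 CPM (SD, n = 3). The formyl peptide receptor genes Fpr1 (-5.76) and Fpr2, of which FPR2 binds SAA, also fell, and Fpr2 was left with 3, 3 and 0 counts in T4 to T6. Cd163, which takes up haptoglobin-hemoglobin complexes in macrophages, had 0, 0 and 2 counts in V1 to V3 and 32, 36 and 32 in T4 to T6. Fpr1 and Fpr2 passed the filter on low counts only through the HO + Vehicle libraries, and Cd163 only through the HO + β-SITO libraries. The filter thus largely fixed the direction of these genes. Bsg, basigin, with the highest mean CPM of the list, had a log2 fold change of 0.99, just under 2-fold. The partners of ceruloplasmin and pentraxin 3 that follow were chosen after their values were seen. Slc40a1, the iron exporter ferroportin, rose from 5.09 ± 0.412 to 79.2 ± 4.43 CPM (SD, n = 3, log2 fold change 3.96), and Heph, a membrane ferroxidase related to ceruloplasmin, rose by 1.27 on the log2 scale. Tnfaip6, which joins pentraxin 3 in the hyaluronan matrix, fell (-2.65).

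Relatives of the members by family were mostly not called, as were most of all tested genes. Of 19 S100, pentraxin, ferroxidase and lipocalin genes 14 were tested, of which 2 fell and none rose. Over all tested genes 10.1% were lower and 12.8% higher, so 2 lower of 14 lies near the share of all genes. Apod, a lipocalin that binds lipids, fell from 58.0 ± 2.14 to 2.25 ± 0.570 CPM (SD, n = 3, log2 fold change -4.68), and Hephl1, a ferroxidase with at most 16 counts in a library, had a log2 fold change of -2.01. Hephl1 passed the filter on low counts only through the HO + Vehicle libraries, so the filter largely fixed its direction. S100a11, with the highest mean CPM among the relatives, had 518.4 ± 40.1 CPM with vehicle and 383.7 ± 14.4 CPM with β-SITO and was not called (-0.43). No S100 gene of the list was called. S100a7a (0.997 ± 0.39), S100b (0.97 ± 0.32) and S100a16 (0.93 ± 0.08, all SE), chosen after their values were seen, lay just under 2-fold. The values of S100a7a and S100b are imprecise. S100a7a had 4, 6 and 6 counts in V1 to V3 and 14, 13 and 11 in T4 to T6. S100b had 9, 17 and 17 counts in V1 to V3 and 34, 41 and 24 in T4 to T6. Of the relatives, 4 were called higher when TMM was replaced by library size only or by upper quartile normalization.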

How the data were processed

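Total RNA was extracted from NMCMs, and the authors' methods name an mRNA-seq library kit and paired-end reads. The authors deposited raw gene counts for 6 libraries, with no normalization, in 1 table. The submitters' processing notes name FastQC, HISAT2, featureCounts and GRCm39, without versions, and the counting options, annotation release and strand setting are not given in the sources used here. The authors' methods name DESeq2, which was run here as an alternative because edgeR's quasi-likelihood test was the main one.

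From the deposited counts, filterByExpr (about 10 counts, or 0.587 CPM, in at least 3 libraries) left 14799 of 57010 genes. After TMM scaling, a quasi-likelihood model with the group as its only term was fitted in edgeR 4.0.16 under R 4.3.3, and p-values were adjusted over all tested genes by the Benjamini-Hochberg method. DESeq2 1.42.0 and limma 3.58.1 served for alternatives. The SE is the log2 fold change divided by the square root of the F statistic, and intervals of 95% are 1.96 SE on either side. On simulated counts for 14560 genes, 196 of 200 changed genes were recovered with 1 false call. The simulation gave every gene the same dispersion and changed far fewer genes than were called here. Its false calls therefore do not measure those of these data.

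Lengths came from GENCODE vM21 principal transcripts, matched by gene identifier (22405 genes), and promoters from RefSeq (GRCm38.p6), whose coordinates are not those of the table. Members and lists were chosen with earlier results of these data known. Genes named from each list are its tested gene with the highest mean CPM and up to 4 called genes with the largest change, and others are said to be chosen after their values were seen. Alternatives were other tests, normalizations and filters, no fold cutoff, removal of mitochondrially encoded genes and removal of each library. No set test was run.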

Additional observations from a re-analysis of the deposited data

How the results depend on the processing

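Saa3, Lcn2, Ptx3, Hp and Cp were called lower under each of the 16 alternatives. When any 1 library was removed, log2 fold changes were -9.05 to -8.76 for Saa3, -8.64 to -8.34 for Lcn2, -7.16 to -7.03 for Ptx3, -5.94 to -5.56 for Hp and -1.93 to -1.82 for Cp. Upper quartile normalization and library size only moved the median of all genes to 0.14 from -0.01, which is small beside these changes. Low counts limit Saa1, Saa2, Orm1, S100a8 and S100a9, and no fold of them is precise. No paired analysis was possible because the groups share no replicate number.

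Without the fold cutoff 5007 genes were lower and 4885 higher, in place of 1492 and 1888. The numbers called higher were then 14 of the receptors and partners, 1 of the inducing signals, 8 of the relatives by family, 5 of the cardiomyocyte markers and 6 of the fibroblast markers. The numbers called lower were 2 of the macrophage, 2 of the cardiomyocyte and 2 of the fibroblast markers. With upper quartile normalization 1 inducing signal, 4 relatives and 2 fibroblast markers were called higher, and with library size only 1, 4 and 3. For the relatives, 1 was called lower with the stricter filter, and 1 was called higher with RLE normalization and 1 without mitochondrially encoded genes. Without a filter 1 neutrophil marker and 2 hepatocyte markers were called higher, in a fit whose p-values may be too small. With each library left out, 0 to 1 inducing signals were called higher (1 without vehicle replicate 3 or β-SITO replicate 5), 0 to 2 relatives (2 without vehicle replicate 2 or β-SITO replicate 6, 1 without vehicle replicate 3 or β-SITO replicate 4) and 0 to 1 fibroblast markers (1 without vehicle replicate 3 or β-SITO replicate 6). The filters and the fold cutoff change these counts by construction, and for the other settings the cause was not tested.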

Other observations

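Ahsg, named above for its part in the sum of hepatocyte markers, encodes the plasma protein fetuin-A and falls in the liver during the acute phase. Here Ahsg rose from 9.17 ± 1.98 to 38.1 ± 4.26 CPM (SD, n = 3), with an adjusted p of 1.28e-09 by edgeR's quasi-likelihood model. Every HO + β-SITO library was above every HO + Vehicle library. The other hepatocyte markers were too low to be tested. Of the neutrophil granule protease genes, Elane, with 3 counts in T5, and Ctsg, with 1 in T4, had none in any other library, and both were chosen after their values were seen.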
